A study of Rattus norvegicus with 2 samples.

Results

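The genes of the cytosolic translation initiation, elongation and release factors were compared between 2 samples of rat cortical neurons from embryonic day 18, labelled siNC and siYthdf3. By these names the first was given a control small interfering RNA and the second one directed at Ythdf3. They were chosen by name alone, as every gene row whose symbol begins with Eif1 to Eif6, Eef1 or Eef2 or is Etf1, Gspt1 or Gspt2. This gave 78 of 21224 gene rows. With 1 row kept for each symbol, 69 averaged 1 FPKM or more across the libraries, the level from which a gene was counted as measured. Of these 69, 48 encode the factors themselves and 21 encode kinases, inhibitors, methyltransferases and other proteins named after the factors, or are rows named as copies or pseudogenes. FPKM scales the reads of a gene by its length and by the reads assigned to all genes. Each group was 1 library of neurons, with 15392218 assigned reads in siNC and 22586543 in siYthdf3, so differences between them cannot be set against the spread of replicates and carry no p-values. The labels name no strain, no time after transfection and no hypoxic treatment.

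Protein synthesis starts when eIF2 brings the initiator tRNA to the small ribosomal subunit, eIF1, eIF1A and eIF3 hold that subunit open, and eIF4F recruits it to the capped end of the messenger RNA. eIF5 and eIF5B then complete the ribosome, eEF1 delivers each aminoacyl-tRNA, eEF2 moves the ribosome along, and eRF1 with eRF3 releases the finished protein. Neurons and muscle switch some of these factors to a tissue-restricted paralogue, of which Eef1a2 in place of Eef1a1 is the best known. The YTHDF3 protein binds messages that carry the methyl mark m6A, and proteins of its family are known for acting on the translation and decay of such messages.

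Ythdf3 was at 9.38 FPKM in siNC and 6.93 FPKM in siYthdf3, so that the siYthdf3 level was 0.739 of the siNC level (interval 0.675 to 0.809). Here and below a ratio is siYthdf3 over siNC, and an interval is the 95% interval that the read counts allow, which covers counting error only. For single genes it is exact. For ratios between genes it is exact or, where a gene had 3000 reads or more, Woolf's approximation. Markers of other cells differed between the same libraries. All 10 pan-neuronal markers were measured, with a summed level of 1002 FPKM in siNC and 1147 FPKM in siYthdf3. The 10 radial glia and progenitor markers summed to 2071 FPKM in siNC and 1395 FPKM in siYthdf3, and the 10 cell cycle genes to 370 FPKM and 187 FPKM. Summed levels in siNC and siYthdf3 were 177 FPKM and 239 FPKM for 8 astrocyte markers, 31.1 FPKM and 18.7 FPKM for 7 oligodendrocyte lineage markers, 7.45 FPKM and 3.58 FPKM for the 5 microglia markers in the table, and 126 FPKM and 151 FPKM for the 5 pericyte, fibroblast and meningeal markers in it. In 2 of these lists the sum went against most members: 5 of the 8 astrocyte markers were below 0, with a median log2 ratio of -0.14, and 3 of the 4 measured pericyte, fibroblast and meningeal markers were, with a median of -0.39. None of these markers was at 0 in both libraries, and 1 microglia and 1 pericyte, fibroblast or meningeal marker was at 0 in one of them. In such bulk samples fewer cells of a type and less RNA per cell cannot be told apart, and the part of these differences in the values that follow was not tested.

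As a group the translation factor genes were slightly lower in siYthdf3. Reads on all 78 rows made up 1.88% of assigned reads in siNC (exact binomial interval 1.87% to 1.89%) and 1.751% in siYthdf3 (1.746% to 1.757%). These rows include copies, and both rows of the copy Eef1a1l1 hold the same reads. With each symbol counted once and copies left out, the shares were 1.82% in siNC and 1.70% in siYthdf3. The median log2 ratio over the 69 measured genes was -0.13, with quartiles of -0.23 and -0.03. Over all 13071 genes measured in the same way the median was -0.01, with quartiles of -0.17 and 0.14. Log2 ratios are on the scale of log2(FPKM + 0.5), so that differences of genes with low levels come out too small. Of the 69 genes, 55 lay below 0 and 14 above, where 51.9% of all measured genes lay below 0 and 48.1% above.

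A gene was called when it differed by at least 1.2-fold and its counting interval excluded 1. By this rule 13 translation factor genes were lower, 18.8% of the 69, where 12.0% of all measured genes were called lower. A single gene, Eif4e3, was called higher, 1.45% of the 69, where 9.06% of all measured genes were called higher. The called genes thus lay mostly on the lower side, with plain FPKM ratios from 0.631 to 0.831 in the 13 lower genes. Rescaling to TPM sets the summed levels of both libraries equal. After it, 8 and 2 of the 69 genes were called lower and higher, where 9.38% and 13.4% of all genes were. On the log2(FPKM + 0.5) scale, on which every call was made, no translation factor gene differed by 1.5-fold with an interval excluding 1 in either direction, where 3.24% of all measured genes were lower and 1.38% higher by that rule.

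Abundant genes have narrow counting intervals, so the intervals are read against genes of a like level. At 20 FPKM or more on average, a limit chosen after the data were seen, 30 of 43 translation factor genes had an interval wholly below 1 and 3 wholly above. Of all 3259 genes at that level, 37.2% had an interval below 1 and 28.0% above. By log2 ratio, 38 of the 43 lay below 0 and 5 above, where 55.6% and 44.4% of all genes at that level did. By the 1.2-fold rule 9 of the 43 were called lower and 0 higher, where the background was 12.0% and 6.38%. Over all levels, 37 of the 69 genes had an interval below 1 and 6 above, where the background was 22.1% and 20%.

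**Figure D1:**
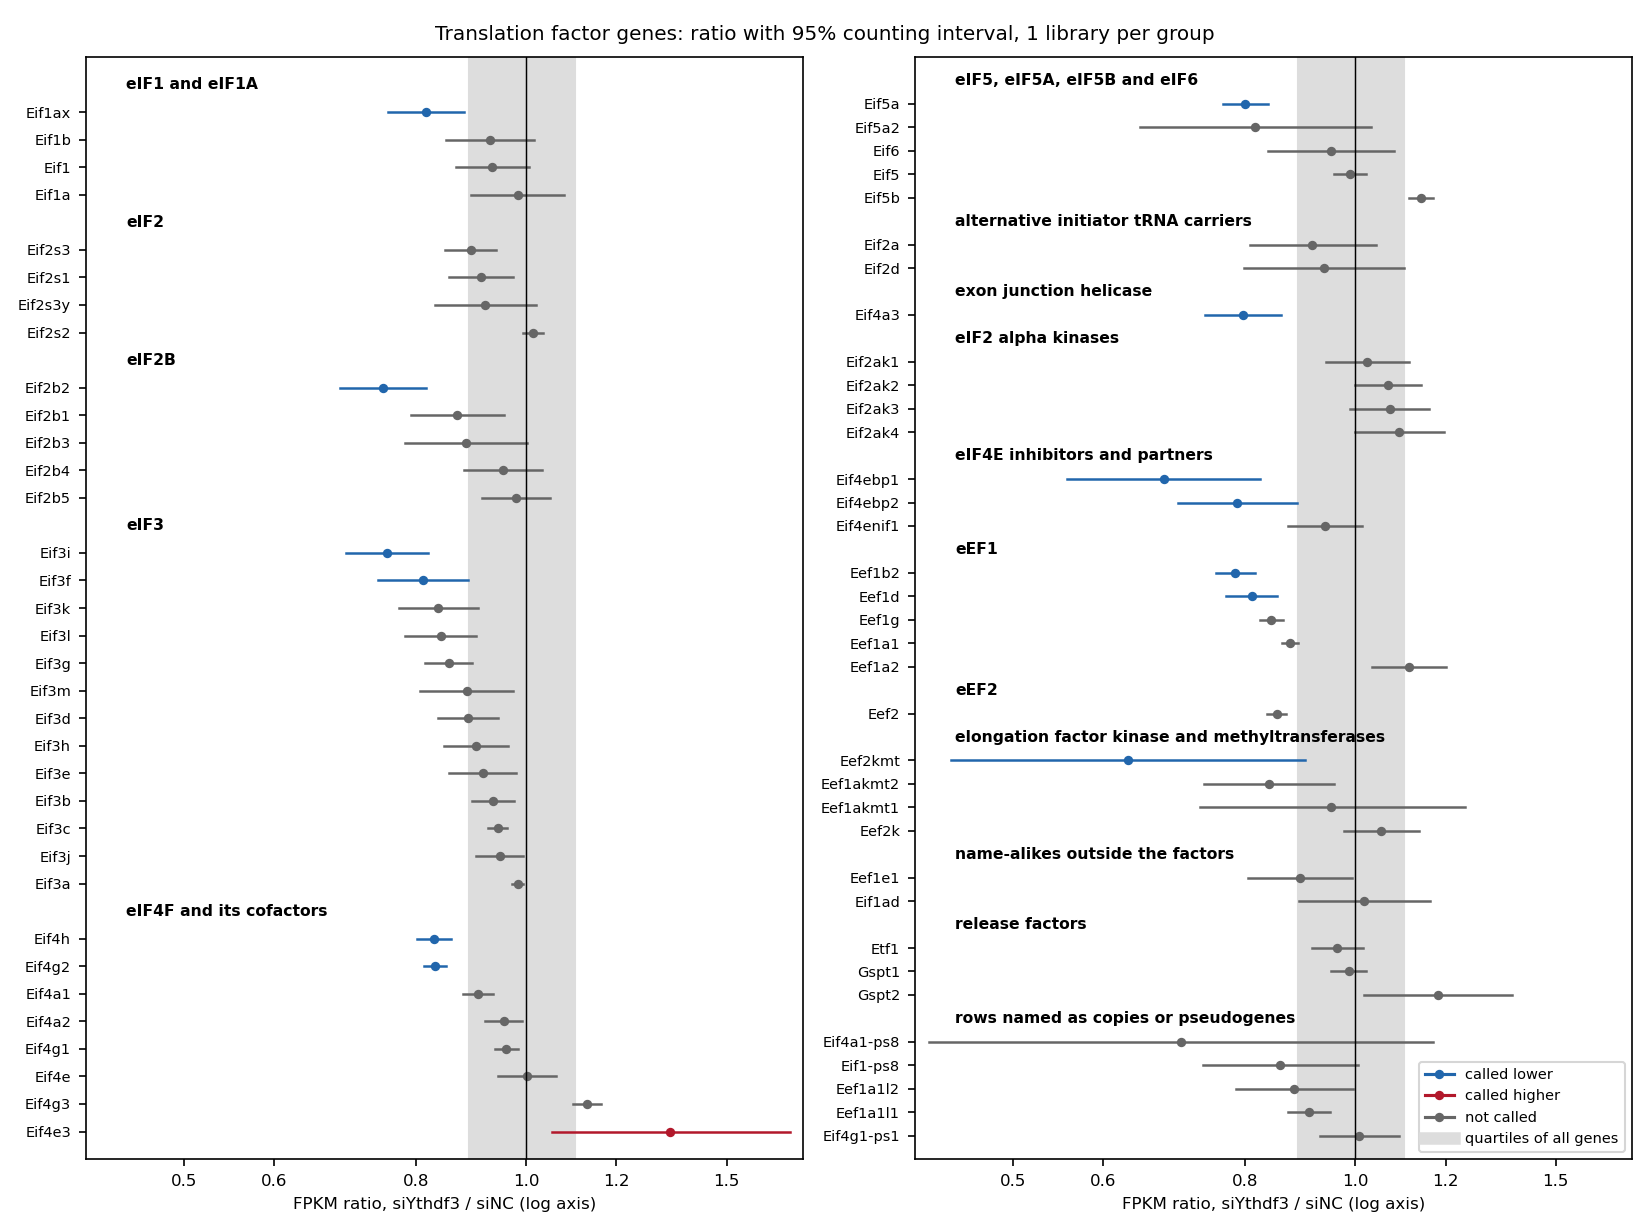
FPKM ratio of siYthdf3 over siNC on a log axis for the 69 measured translation factor genes, grouped by complex, with bars for the 95% counting interval and a grey band for the quartiles of all genes on the log2(FPKM + 0.5) scale. The 13 genes called lower lie between ratios of 0.631 and 0.831, and all 13 eIF3 subunit genes lie to the left of 1 in FPKM.

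The first step of initiation is the assembly of the preinitiation complex. For the scanning factors eIF1 and eIF1A, 4 measured genes gave a median log2 ratio of -0.10. Eif1, the guardian of start codon choice, was at 44.3 FPKM in siNC and 41.4 FPKM in siYthdf3, and its paralogue Eif1b was at 32.4 FPKM and 30.05 FPKM. Both intervals include 1. Eif1ax (chromosome X, 35498517 to 35513335), which encodes eIF1A, was at 21.5 FPKM in siNC and 17.6 FPKM in siYthdf3, a ratio of 0.817 (interval 0.756 to 0.882), and was called lower, though not after rescaling to TPM. The second eIF1A gene, Eif1a on chromosome 18, was at 11.9 FPKM and 11.7 FPKM, with an interval that includes 1. The pair of eIF1A genes thus differed in their values, though the difference between them was not tested. The Eif1 row spans 85246764 to 85427327 on chromosome 10 and overlaps 9 other gene rows, so its reads are uncertain.

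The eIF2 trimer, which carries the initiator tRNA, had a median of -0.12 over 4 genes and no called member. Its alpha subunit gene Eif2s1, whose product is the target of the stress kinases, was at 81.6 FPKM in siNC and 74.4 FPKM in siYthdf3, a ratio of 0.912 (interval 0.855 to 0.974). Its beta subunit gene Eif2s2 was far more abundant, at 397 FPKM and 402 FPKM, at a ratio of 1.01 (interval 0.993 to 1.03). The X-linked gamma subunit gene Eif2s3 was at 48.0 FPKM and 42.8 FPKM, a ratio of 0.893 (interval 0.848 to 0.941). Its Y-linked copy Eif2s3y was at 14.9 FPKM and 13.8 FPKM, with an interval that includes 1. Within the trimer, the ratio of Eif2s2 to Eif2s1 was 4.86 in siNC and 5.41 in siYthdf3, a change of 1.11-fold (interval 1.04 to 1.19). The ratio of Eif2s3 to Eif2s1 was 0.588 and 0.576, a change of 0.979-fold with an interval that includes 1 (0.901 to 1.06).

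The guanine nucleotide exchange factor eIF2B recharges eIF2 with GTP, and mutations in any of its subunit genes cause vanishing white matter disease in humans. All 5 subunit genes were below 0 in FPKM, with a median of -0.17, where 51.9% of all measured genes lay below 0. After rescaling to TPM, Eif2b5 was above 0, at 0.02. Eif2b2 (ENSRNOG00000006467, chromosome 6, 104866753 to 104873351), the beta subunit, was at 38.7 FPKM in siNC and 28.9 FPKM in siYthdf3, from 1001 and 1099 reads. Its ratio of 0.748 (interval 0.686 to 0.816) made it the only subunit called lower. Eif2b1, the alpha subunit, was at 19.2 FPKM and 16.7 FPKM, a ratio of 0.870 (interval 0.791 to 0.956). Eif2b3, Eif2b4 and the catalytic subunit gene Eif2b5 had intervals that include 1, and Eif2b5 was at 28.7 FPKM and 28.1 FPKM. The subunits thus differed in their values. The counting interval of Eif2b2, the lowest of the 5, lies below those of Eif2b4 (0.881 to 1.03) and Eif2b5 (0.914 to 1.05), though the difference between them was not tested.

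The kinases that phosphorylate eIF2 alpha, and so slow initiation under stress, stood on the other side of 0. All 4 were slightly higher in siYthdf3, with a median log2 ratio of 0.10 and none called. Eif2ak4 (GCN2, which senses uncharged tRNA) was at 9.86 FPKM in siNC and 10.8 FPKM in siYthdf3, and Eif2ak3 (PERK, of the endoplasmic reticulum) at 14.5 FPKM and 15.6 FPKM, both with intervals that include 1. Eif2ak2 (PKR, which senses double-stranded RNA) was at 22.8 FPKM and 24.4 FPKM, a ratio of 1.07 (interval 1.00 to 1.14, wholly above 1 before rounding). Eif2ak1 (HRI, the heme-regulated kinase) had a log2 ratio of 0.03. Outputs of the integrated stress response, the program these kinases start, had a median of 0.07 over 12 measured genes, with 1 called lower and 2 higher, where 12.0% and 9.06% of all genes were. The alternative carriers of initiator tRNA, Eif2a and Eif2d, were at -0.12 and -0.09 with intervals that include 1.

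For the scaffold eIF3, the counting intervals of all 13 subunit genes lay below 1 in FPKM, with a median log2 ratio of -0.17. Of all measured genes 22.1% had such an interval, and 37.2% of those at 20 FPKM or more. The upper limits of Eif3a, Eif3b, Eif3e, Eif3j and Eif3m lay between 0.974 and 0.994, so close to 1 that the count of 13 depends on the scaling. The point value of Eif3a turned to the other side of 0 after rescaling to TPM. Eif3i and Eif3f passed the 1.2-fold rule. Eif3f did not after rescaling to TPM, and Eif3k and Eif3l did once the siYthdf3 reads were thinned to the depth of siNC. Eif3i (chromosome 5, 141935044 to 141942676), a WD repeat subunit, was at 48.0 FPKM in siNC and 36.2 FPKM in siYthdf3, a ratio of 0.754 (interval 0.694 to 0.819). Eif3f (chromosome 1, 162934212 to 162943204), a subunit with an MPN domain, was at 44.5 FPKM and 36.1 FPKM, a ratio of 0.811 (interval 0.741 to 0.889). Next came Eif3k at -0.25, Eif3l at -0.25 and Eif3g at -0.23. The other MPN subunit gene, Eif3h, was at 43.8 FPKM and 39.6 FPKM, and Eif3e at 51.1 FPKM and 46.8 FPKM. The row used for Eif3e carries the symbol Eif3el1, which RefSeq gives as a synonym of Eif3e on chromosome 7, where the row lies.

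The smallest difference was that of Eif3a, the largest subunit, at 506 FPKM in siNC and 497 FPKM in siYthdf3, a ratio of 0.982 (interval 0.971 to 0.994). These values rest on 47875 and 69019 reads. After rescaling to TPM its log2 ratio was 0.02, so its direction depends on the scaling. The median of the complex was -0.12 after rescaling to TPM. It was -0.15 after a fitted trend with gene length was removed, which took out only part of that trend.

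Messenger RNA levels of the subunits were far from equal in both libraries. Eif3a and Eif3c together held 34.5% and 25.1% of the summed FPKM of the complex in siNC, and 36.5% and 25.4% in siYthdf3. The highest subunit stood 32.4-fold above the lowest, Eif3m, in siNC and 36.0-fold in siYthdf3. The order by level was close in both libraries, with neighbours such as Eif3d and Eif3e, at 52.5 and 51.1 FPKM in siNC, changing places in siYthdf3 at 46.7 and 46.8 FPKM.

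**Figure D2:**
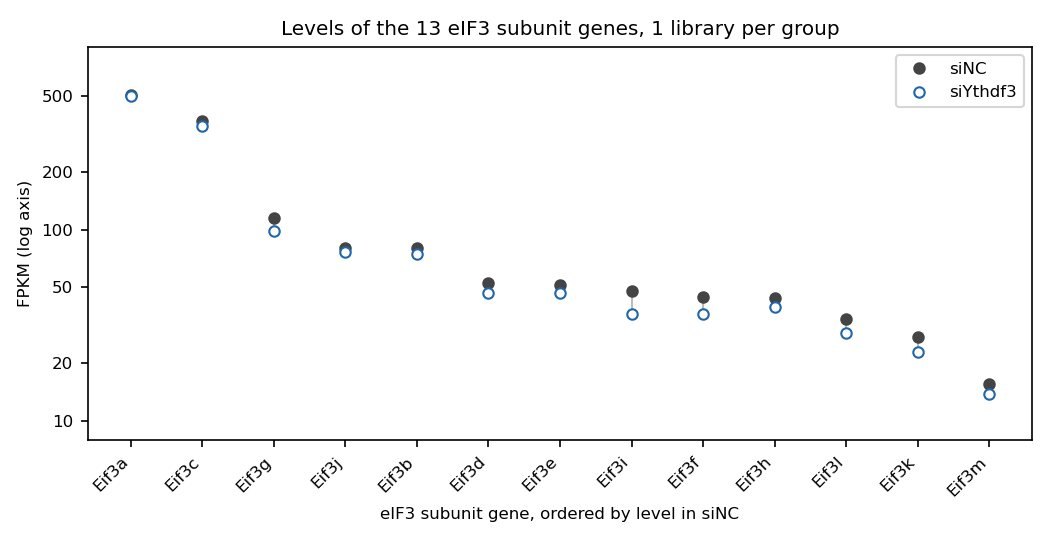
FPKM of the 13 eIF3 subunit genes on a log axis, filled points for siNC and open points for siYthdf3, 1 library each. Eif3a and Eif3c stand far above the other subunits in both libraries, Eif3m is lowest at 15.6 and 13.8 FPKM, and each open point lies below its filled point.

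The cap-binding complex eIF4F and its cofactors went both ways. The median log2 ratio was -0.06 over 8 measured genes, or -0.012 after rescaling to TPM. Of these 8, 2 were called lower and 1 higher, where 12.0% and 9.06% of all measured genes were. Eif4e, which binds the cap, was at 27.5 FPKM in siNC and 27.5 FPKM in siYthdf3, at a ratio of 1.00 (interval 0.945 to 1.06). Its scaffold genes went apart. Eif4g1, the main scaffold, was at 145 FPKM and 139 FPKM, a ratio of 0.961 (interval 0.939 to 0.982). Eif4g3, a paralogous scaffold, was higher at 57.3 FPKM and 64.8 FPKM, a ratio of 1.13 (interval 1.10 to 1.16). Eif4g2 (chromosome 1, 165181434 to 165193566), also called DAP5, lacks the eIF4E-binding site and serves cap-independent initiation. It was at 191 FPKM in siNC and 159 FPKM in siYthdf3, a ratio of 0.831 (interval 0.813 to 0.849), and was called lower.

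Eif4h (chromosome 12, 22082835 to 22099867), an RNA-binding cofactor that stimulates the helicase eIF4A, was at 141 FPKM in siNC and 117 FPKM in siYthdf3, a ratio of 0.830 (interval 0.802 to 0.859). Eif4g2 and Eif4h lay just past the 1.2-fold line, at -0.27 each. Neither was called after rescaling to TPM, after the median of all genes was set to 0 or after the fitted length trend was removed. The single gene called higher, Eif4e3, encodes a minor cap-binding paralogue. It was at 2.69 FPKM in siNC and 3.599 FPKM in siYthdf3, a ratio of 1.34 (interval 1.05 to 1.71), on only 106 and 208 reads. The germline paralogue Eif4e1b was at 0.518 FPKM and 0.647 FPKM, below the level counted as measured. No gene row carried the symbol Eif4b or Eif4e2, so these genes were not analysed here.

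The repressors of eIF4E were lower. eIF4E-binding proteins occupy the site on eIF4E that eIF4G needs, until mTORC1 phosphorylates them. Eif4ebp1 (ENSRNOG00000012582, chromosome 16, 64790226 to 64805937) was at 5.99 FPKM in siNC and 4.06 FPKM in siYthdf3, a ratio of 0.678 (interval 0.558 to 0.824). These values rest on 214 and 213 reads. Eif4ebp2 (chromosome 20, 29382668 to 29399946), the main form in brain, was at 13.2 FPKM and 10.4 FPKM, a ratio of 0.788 (interval 0.698 to 0.889). Both were called lower. Set against Eif4e in the same library, the ratio of Eif4ebp1 to Eif4e was 0.218 in siNC and 0.148 in siYthdf3, a change of 0.677-fold (interval 0.553 to 0.830). The ratio of Eif4ebp2 to Eif4e was 0.479 and 0.377, a change of 0.787-fold (interval 0.688 to 0.900). These within-library ratios do not depend on how the libraries are scaled, but the genes in them differ in length. Eif4ebp1 and Eif4ebp2 are 2320 and 2498 bases long, and Eif4e is 4630. With a fitted length trend removed, the changes were 0.684-fold (0.558 to 0.839) and 0.794-fold (0.694 to 0.908). That fit took out only part of the trend. Eif4enif1, which carries eIF4E into the nucleus, was at 18.8 FPKM and 17.7 FPKM with an interval that includes 1. For 16 genes of the mTORC1 pathway the median was -0.03. Of these 16, 0 were called lower and 1 higher, where 12.0% and 9.06% of all genes were.

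Factors that act at and after subunit joining went both ways. Eif5b (chromosome 9, 40222898 to 40277482), the GTPase that joins the subunits, was at 139 FPKM in siNC and 159 FPKM in siYthdf3, a ratio of 1.14 (interval 1.11 to 1.17), short of the 1.2-fold rule. Eif5a (chromosome 10, 54640024 to 54644541) encodes the hypusine-containing factor that helps ribosomes through difficult peptide bonds. It was at 147 FPKM and 118 FPKM, a ratio of 0.8002 (interval 0.765 to 0.837), and was called lower. Eif5, which triggers GTP hydrolysis by eIF2, was at 101 FPKM and 99.6 FPKM, and Eif6, which keeps the large subunit apart, at 14.4 FPKM and 13.7 FPKM, both with intervals that include 1. Eif4a3, a relative of eIF4A that belongs to the exon junction complex and not to eIF4F, was at 46.9 FPKM and 37.3 FPKM, a ratio of 0.797 (interval 0.738 to 0.861), and was called lower.

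Of the 6 elongation factor genes, 5 had an interval below 1 and 1, Eef1a2, above, where 22.1% and 20% of all measured genes did. Their median log2 ratio was -0.24, and that of the 39 initiation factor genes was -0.13. The difference between these medians was not tested. Eef1a1 (ENSRNOG00000009439, chromosome 8, 79341557 to 79344787), which delivers aminoacyl-tRNA, was the most abundant gene of the set at 992 FPKM in siNC and 869 FPKM in siYthdf3, a ratio of 0.876 (interval 0.863 to 0.890). Eef2 (chromosome 7, 8533116 to 8559183), the translocase, was at 358 FPKM and 305 FPKM, a ratio of 0.853 (interval 0.837 to 0.869). Neither reached 1.2-fold.

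The exchange factors that recharge eEF1A were lower by a little more. Eef1b2 (chromosome 9, 64579893 to 64582737) was at 193 FPKM in siNC and 151 FPKM in siYthdf3, a ratio of 0.784 (interval 0.754 to 0.815). Eef1d, a second exchange subunit, was at 34.2 FPKM and 27.7 FPKM, a ratio of 0.811 (interval 0.770 to 0.853), and both were called lower, though Eef1d not after rescaling to TPM. The structural subunit gene Eef1g was at 348 FPKM and 294 FPKM, a ratio of 0.844 (interval 0.825 to 0.863). Eef1a2 alone among the elongation factor genes was higher, as described with the paralogues. Among the enzymes that modify elongation factors, the eEF2 kinase gene Eef2k was at 15.1 FPKM and 15.9 FPKM with an interval that includes 1. The ratio of Eef2k to Eef2 was 0.0421 in siNC and 0.0520 in siYthdf3, a change of 1.24-fold (interval 1.14 to 1.34). With the fitted length trend removed, which took out only part of it, the change was 1.23-fold (1.14 to 1.33). Eef2kmt, which methylates eEF2, had the lowest log2 ratio of all, -0.54, at 2.64 FPKM and 1.67 FPKM, but on only 68 and 63 reads (ratio interval 0.441 to 0.903).

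Most elongation factor messages, and those of eIF3 subunits e, f and h and of eIF4B, belong to the 5′ terminal oligopyrimidine (TOP) messages. Such messages have a C at the cap followed by a run of C and T, a tract through which mTORC1 and LARP1 control their translation. The established set used here leaves out Eef1a2, the elongation factor gene whose interval lay above 1 (1.03 to 1.202). The 8 measured genes of this set (Eef1a1, Eef1b2, Eef1d, Eef1g, Eef2, Eif3e, Eif3f and Eif3h) all had an interval below 1 in FPKM. Of all genes at 20 FPKM or more, 37.2% had one. The interval of Eif3e reached 0.979, so close to 1 that its side depends on the scaling. Their median log2 ratio was -0.24, and 3 were called lower, where 12.0% of all genes were. The 6 other established TOP messages measured, such as those of the poly(A)-binding protein Pabpc1 and of Tpt1, also had intervals below 1 throughout. Their median was -0.21 and 2 were called lower, to be read against the same shares of all genes. The 50 measured rows with symbols of cytosolic ribosomal proteins, the largest class of TOP messages, had a median of -0.26, with 23 called lower and 0 higher, where 12.0% and 9.06% of all genes were. TOP tracts are known to act on translation, and translation was not measured here.

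RefSeq start sites of the GRCr8 build show these tracts. The windows below run from 10 bases before the annotated start to 20 bases from it, 5′ to 3′, and are shown for 4 genes with a tract near the start and for Eif3i and Eif5a, which were called lower without one there. Capitals mark a C and the C or T run after it where such a run begins within 5 bases of the annotated start, and runs that begin farther away are not marked.
Eef1a1, chr8:88225050-88225079, minus strand: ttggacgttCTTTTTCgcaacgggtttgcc
Eef1b2, chr9:72074081-72074110, plus strand: ggccggtcccggCCCTTTTTCTCCCTCagc
Eif3f, chr1:172369052-172369081, plus strand: cccttccgttctagCCTCTCTCTTTCTCgg
Eif2a, chr2:144911350-144911379, plus strand: gcatgggtttCTCTTTCCgggacaagatgg
Eif3i, chr5:147226891-147226920, minus strand: ttcttccggtcctactcacattgcctctct
Eif5a, chr10:55143202-55143231, minus strand: tagaggcggcggcggcggcggcagcagcac

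The search was made on the transcribed strand only. Eif2a alone had its tract at the annotated base itself, with a C there and at least 4 C or T after it, 1 of 61 measured translation factor genes matched by symbol. Of all 27457 RefSeq symbols with a window 3.11% had such a start. In the other 3 tracts shown the run began from 1 base before to 4 bases after the annotated start, whose exact base is uncertain by some bases. With a start allowed within 5 bases, 17 of 61 translation factor genes (27.9%) held such a run, and 18.8% of the measured genes with a window did. The 17 genes with a run had a median log2 ratio of -0.12 and 2 were called lower (11.8%), where 12.2% of all measured genes with a run were. The 44 without one had a median of -0.11 and 9 were called lower (20.45%), where 12.4% of all measured genes without one were. Genes with and without these letters thus had close medians. The windows of Eef2 and Eef1g, established TOP messages, held no such run.

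The last step is release. Etf1, the eRF1 that reads stop codons, was at 83.8 FPKM in siNC and 80.8 FPKM in siYthdf3, and the eRF3 gene Gspt1 was at 123 FPKM and 121 FPKM. Both intervals include 1. The median of the 3 release factor genes was -0.02, or 0.03 after rescaling to TPM, so no direction is given for them.

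Brain-enriched and ubiquitous paralogues were compared within each library, where the ratio of both genes does not depend on library scaling. Of 5 such pairs, 3 had shifted toward the brain-enriched gene in siYthdf3 by an interval wholly above 1, and 0 toward the ubiquitous gene. The brain-enriched gene is the longer one in all 5 pairs. With a length trend fitted over all genes removed, a check added after the data were seen, 2 of the 3 intervals lay above 1. That fit took out only part of the trend. Between Eef1a2 and Eef1a1, of 6076 and 1879 bases, it moved the fold from 1.27 to 1.25. All genes of their length groups had median log2 ratios of 0.08 and -0.07. The values below with the length trend removed therefore do not take gene length out in full. Eef1a2 (chromosome 3, 168195357 to 168275071), the eEF1A of mature neurons and muscle, was at 11.9 FPKM in siNC and 13.3 FPKM in siYthdf3, a ratio of 1.11 (interval 1.03 to 1.202). It made up 1.19% of the summed FPKM of Eef1a1 and Eef1a2 in siNC and 1.51% in siYthdf3. The ratio of Eef1a2 to Eef1a1 was 1.27-fold higher in siYthdf3 (interval 1.18 to 1.37), or 1.25-fold (1.16 to 1.35) with the length trend removed. The embryonic form thus dominated in both libraries.

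Gspt2, the eRF3 paralogue that is enriched in brain, was at 5.07 FPKM in siNC and 5.99 FPKM in siYthdf3, a ratio of 1.18 (interval 1.02 to 1.37). The ratio of Gspt2 to Gspt1 was 1.198-fold higher in siYthdf3 (interval 1.03 to 1.39), or 1.19-fold (1.03 to 1.39) with the length trend removed. Eif4a2, the eIF4A helicase of postmitotic tissues, was at 71.8 FPKM and 68.6 FPKM, and the ubiquitous Eif4a1 at 279 FPKM and 253 FPKM. Their ratio was 1.05-fold higher (interval 1.00 to 1.10, wholly above 1 before rounding), the smallest of the 3 shifts. With the length trend removed it was 1.04-fold (interval 0.992 to 1.09), which includes 1. Eif4a2 itself had a ratio of 0.955 (interval 0.920 to 0.992). In this pair both genes were lower and the ubiquitous one more so.

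The remaining pairs had intervals that include 1. Eif5a2 was at 1.83 FPKM in siNC and 1.49 FPKM in siYthdf3, and its ratio to Eif5a changed 1.02-fold (interval 0.809 to 1.28). The ratio of Eif4ebp2 to Eif4ebp1 changed 1.16-fold (interval 0.922 to 1.46). A shift of 1.2-fold in either pair lies inside these intervals. Among 3 other pairs, not known as a switch between brain and other tissues, Eif4g3 to Eif4g1 was 1.18-fold higher (interval 1.14 to 1.22) and Eif4e3 to Eif4e 1.34-fold higher (interval 1.04 to 1.72), while Eif1b to Eif1 changed 0.995-fold (interval 0.886 to 1.12). Shifts above 1 were therefore not limited to brain-enriched paralogues. In the same libraries the summed pan-neuronal markers were higher in siYthdf3 and the progenitor and cell cycle markers lower, as given above, and their part in the paralogue shifts was not tested.

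**Figure D3:**
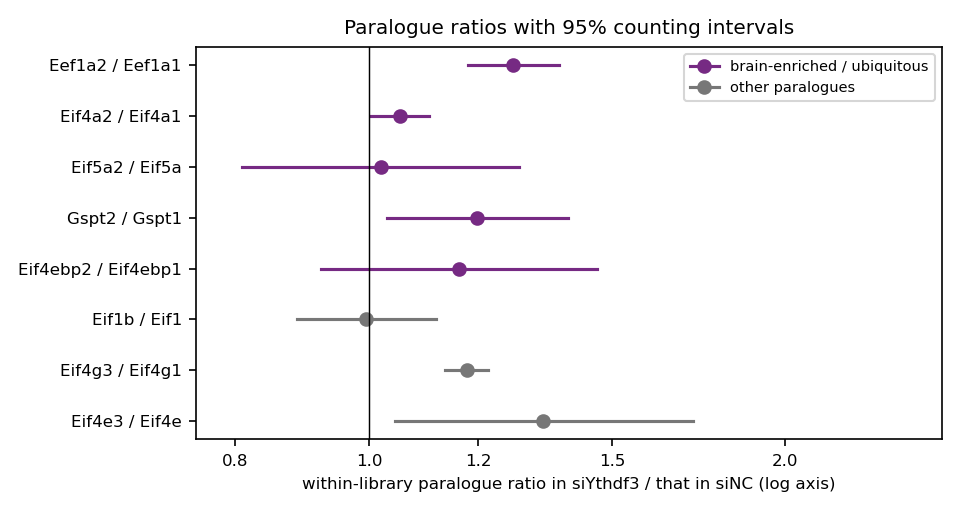
Change of the within-library ratio of paralogues, siYthdf3 over siNC, on a log axis, with 95% counting intervals, purple for 5 brain-enriched over ubiquitous pairs and grey for 3 other pairs. The intervals of Eef1a2 over Eef1a1, Eif4a2 over Eif4a1, Gspt2 over Gspt1, Eif4g3 over Eif4g1 and Eif4e3 over Eif4e lie above 1.

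Gene length moved with the ratios. Across 5 equal groups of all measured genes from the shortest to the longest, the median log2 ratio was -0.08, -0.07, -0.02, 0.01 and 0.08. The translation factor genes in the same groups numbered 9, 18, 19, 15 and 8 and had medians of -0.22, -0.14, -0.12, -0.02 and -0.04, each below the median of all genes of that length. The 13 genes called lower were 1271 (Eif3f) to 5180 (Eef1d) bases long, with a median of 1689. The 6 genes with an interval above 1 were 2559 (Eif4e3) to 9159 (Eif4g3) bases long, with a median of 4418. The ranges of these groups overlap, while their medians lie apart. Eef1d and Eif4g2, at 5180 and 5050 bases, were called lower, though neither after rescaling to TPM. Eif4g2 was also not called with the fitted length trend removed. Eif4e3, the single gene called higher, is the shortest of its group. The part of gene length in these values was not tested. With the length trend fitted across all genes removed, the median of the 69 genes was -0.10. Of these 69 genes, 11 were called lower, where 10.7% of all measured genes were. As given with the paralogues, this fit took out only part of the trend, so these values are not free of length.

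**Figure D4:**
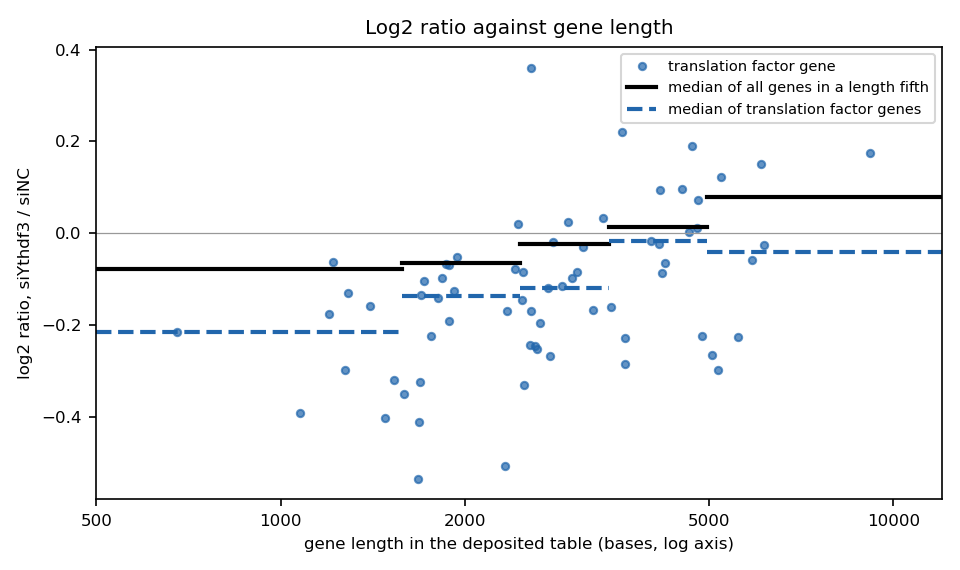
Log2 ratio on the log2(FPKM + 0.5) scale against gene length on a log axis for the 69 measured translation factor genes, with black bars for the median of all genes and dashed bars for that of translation factor genes in 5 length groups. The dashed bar lies below the black bar in each group.

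Translation factor genes have many processed copies in the genome, and 11 of the 78 rows are named as copies or pseudogenes. Eef1a1l1 on chromosome X is listed on 2 overlapping rows of opposite strand, from 148480789 to 148482555 and from 148480790 to 148482536. Both rows held exactly 3629 reads in siNC and 4849 in siYthdf3, so these reads cannot be assigned to a strand. Among 1337 overlapping pairs of opposite strand in the whole table with over 50 reads on each row, 21 had identical reads in both libraries. Eef1a1 itself overlaps a row of the other strand, ENSRNOG00000070285, with 31069 and 40588 reads where Eef1a1 had 28699 and 36894. This row was singled out after its values were seen. In all, 29 of the 69 measured genes overlap another row. Among the genes called lower, Eef1b2 overlaps 3 rows, and Eif3i, Eif5a, Eef1d, Eef2kmt and Eif4g2 overlap 1 each. Eif5b overlaps 2 rows, Eif4a1 3 and Eif4a2 5. The reads of these genes are therefore uncertain too, which their intervals do not cover.

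The start of Eef1a1l1 resembles that of Eef1a1. RefSeq's annotated start of Eef1a1l1 holds 36 bases that are identical to the start of the Eef1a1 message, tract included, beginning 7 bases after the annotated base. In the window below, capitals mark the part of this shared stretch that it holds.
Eef1a1l1, chrX:153525370-153525399, plus strand: aagaatcaacagaaccgCTTTTTCGCAACG

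The ratio of Eef1a1l1, 0.911 (interval 0.872 to 0.951), and that of a second copy, Eef1a1l2, 0.883 (interval 0.785 to 0.994), were close to the 0.876 of Eef1a1. How reads were split between these copies is uncertain. Eif4g1-ps1, named as a pseudogene of Eif4g1, was at 14.2 FPKM in siNC and 14.3 FPKM in siYthdf3, and Eif1-ps8 at 28.0 FPKM and 24.1 FPKM, both with intervals that include 1. Below the level counted as measured were 7 rows, namely Eif4e1b, Eef1akmt3, Eef1akmt4, Eef1g-ps9, Eif3i-ps1, Eif5-ps1 and Eif6-ps1, and each held 26 or fewer reads per library.

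Other parts of the translation apparatus are given for comparison. For 22 cytosolic aminoacyl-tRNA synthetase genes the median log2 ratio was -0.13, with 3 called lower and 0 higher. For 10 mitochondrial translation factor genes the median was -0.11, and 1 was called lower and 0 higher. A list of 16 other initiation, recycling and rescue proteins had a median of -0.08, with 2 called lower and 1 higher. Of all measured genes 12.0% were called lower and 9.06% higher, so the lower counts of these 3 lists lie near the background. Each of these medians lies below the -0.01 of all genes and above the -0.26 of ribosomal protein symbols, as does that of the translation factor genes.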

How the data were processed

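Messenger RNA was measured in 1 siNC and 1 siYthdf3 library, grouped by sample titles. Per the labels' protocols, 1 ug of total RNA entered a kit that tags molecules with identifiers of 12 random bases, and reads of 150 bases were paired. The submitters' processing notes name STAR 2.7.6a, StringTie 2.1.4, edgeR 3.40.2, Subread 1.5.1, fastp 0.23.2 and featureCounts, with no role stated. No source used here gives the genome build, the annotation, the strand setting or whether reads were collapsed by identifier. The authors deposited FPKM values with gene coordinates and lengths, per the file headers.

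Multiplying FPKM by length gave whole multiples of a fixed step in each library for 100% of rows (tolerance 0.05 of a read), and hence the reads behind each value. No count test was run. Ratio intervals are Clopper-Pearson 95% intervals of the siYthdf3 share of a gene's reads. Intervals of ratios between genes, paralogues or not, are exact, or Woolf's where a gene had 3000 reads or more. A call needed 1.2-fold and an interval excluding 1. Genes averaging 1 FPKM or more entered. Of rows that repeat a symbol, the one with the higher mean entered. RefSeq start sequences matched 61 of the 69 measured genes by symbol. The members, lists and pairs were chosen with earlier results of these data known. Full values were due for called members, the highest and lowest of each complex, the pairs and the TOP list, and any other measured member could be named. Alternatives were pseudocounts, filters, scalings, length trend, fold, depth and start definitions. The calculation was checked on simulated data. Python 3.11.15, numpy 2.4.6, pandas 2.3.3, scipy 1.17.1 and matplotlib 3.10.9 were used.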

Additional observations from a re-analysis of the deposited data

How the results depend on the processing

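No paired analysis was possible because each group has 1 library, and for the same reason no library could be left out. The median over the translation factor genes lay between -0.14 and -0.08 under all alternatives run for it. Calls depended on the scaling. After rescaling to TPM, 8 genes were called lower and 2 higher, with Eef1d, Eif1ax, Eif3f, Eif4g2 and Eif4h no longer called and Gspt2 gained. The median of eIF4F and its cofactors was then -0.012. At 1.5-fold 0 genes were called lower and 0 higher. At a mean of at least 5 FPKM, or 20 FPKM, 0 were called higher, since Eif4e3 lies under those limits. Reads on the member rows were 1.69% of the total in siNC and 1.59% in siYthdf3 without Eef1a1, and the share of TPM was 1.71% and 1.62%. With the fitted length trend removed, an alternative chosen after seeing the data for the pairs, the shift of Eif4a2 over Eif4a1 was 1.04-fold and its interval included 1. This fit took out only part of the trend with length. Thinning siYthdf3 to the siNC depth gave 14 lower calls, with Eif4h lost and Eif3k and Eif3l gained. Single genes with log2 ratios near 0 changed sign after rescaling to TPM, namely Eif3a, Eif5, Gspt1, Eif2b5 and Eif1a. The cause of these changes was not tested beyond what each setting alters by construction. Depth limits the genes with few reads, such as Eef2kmt, Eif4e3 and Eif5a2, and the use of 1 library per group limits every value.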
